A study of Homo sapiens with 6 samples.

Results

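The keratins measured here are 7 genes, taken as every row of the authors' deposited table of 1099 genes whose symbol is KRT followed by a digit. KRT13 and KRT17 are type I keratins, and KRT80, KRT81, KRT75, KRT6A and KRT6B are type II. Poly(A) RNA was sequenced from 6 libraries of wild-type cells that the labels give as A549, a human lung adenocarcinoma line, grown in RPMI-1640 with serum. For 24 h, cells of 3 libraries had been given DMSO, the vehicle, and cells of the other 3 a plant preparation called F/B extract. By the series title it came from Flos Sophorae Immaturus (buds of the pagoda tree) together with seed of broccoli. The labels give no dose. The title places the work in a study of tumour growth, G2/M arrest and the epithelial to mesenchymal transition, and the question here is which keratin mRNAs differed with the extract. The labels do not say whether replicates were separate cultures, so the p-values reflect no more than how these libraries varied, possibly for technical reasons.

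Keratins build the intermediate filaments of epithelial cells. A type I protein pairs with a type II protein, and the pairs assemble into filaments that anchor at desmosomes. Simple epithelia and adenocarcinoma lines mainly use KRT8 and KRT18, stratified epithelia add further pairs as cells differentiate, and hair follicles make a set of their own. KRT6A, KRT6B and KRT17 are known as stress keratins, switched on in wounded epidermis. Of the genes measured here, those of type I lie in a keratin cluster on chromosome 17 and those of type II in one on chromosome 12.

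All 7 keratins were listed as lower with extract, but the table was not drawn blind to the comparison. Its 1099 genes are those with the smallest p-values among the 11289 that the authors' adjusted p-values imply were tested, which is 9.74% of them. A listed gene therefore had to differ, and the tests below, run on the same 6 libraries, are not independent evidence. Of the 54 human keratin genes on a fixed list, 28 of type I and 26 of type II, the other 47 were not in the table and were not analysed here. KRT8, KRT18, KRT7 and KRT19, keratins known of A549 and of most adenocarcinoma lines, were among those 47. The lung markers NKX2-1, SFTPB, SFTPC and NAPSA were not in the table either. A gene outside the table may still be expressed, so neither absence bears on which line was used. The library names begin with AGS, which is also the name of a gastric line. MTAP, part of a segment missing from the A549 genome, stood at 48.9 to 60.5 TPM (a level scaled by transcript length and library). Of the gastrointestinal markers looked up, VIL1 stood at 142 to 214 TPM, TFF1 at 33.3 to 81.5, CDH17 at 33.6 to 48.0 and REG4 at 5.83 to 11.6. CDX1 and CDX2 were not in the table. The cell label is therefore uncertain, and which line was used was not tested. Estimated counts over the listed genes summed to between 3084337 and 4640114 per library.

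Because the copies of some keratins are near-identical, their sequences are shown first. KRT6A and KRT6B, which lie on either side of KRT6C, had coding sequences (GENCODE release 29, GRCh38) that were 97.5% identical, with 42 of 1692 aligned positions differing. Their longest identical run was 269 bases. The 60-base stretch in which the pair differed most covers coding positions 663 to 722, counted from the first base of the start codon, and capitals mark bases that differ from the KRT6A line:
KRT6A: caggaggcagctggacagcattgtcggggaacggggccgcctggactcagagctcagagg
KRT6B: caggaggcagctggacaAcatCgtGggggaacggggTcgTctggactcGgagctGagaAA
KRT6C: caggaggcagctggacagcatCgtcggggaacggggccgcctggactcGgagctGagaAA
KRT6B differed from KRT6A at 9 of these bases and KRT6C at 5.

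KRT81 has copies of the same kind. Its coding sequence was 90.1% identical to that of KRT86, with 150 of 1519 aligned positions differing, and the pair shared an identical run of 605 bases. In the stretch of most differences, coding positions 1249 to 1308, capitals mark bases that differ from KRT81:
KRT81: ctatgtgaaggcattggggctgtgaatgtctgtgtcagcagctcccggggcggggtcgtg
KRT86: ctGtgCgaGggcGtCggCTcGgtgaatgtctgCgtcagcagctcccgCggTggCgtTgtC
KRT83: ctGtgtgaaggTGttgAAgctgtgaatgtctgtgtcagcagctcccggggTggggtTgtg
KRT86 differed at 14 of these bases and KRT83 at 7. Neither was in the table. The other 4 members had no such copy among keratins of the same type on the fixed list, the only genes whose coding sequences were compared. Their closest were KRT15 for KRT13 at 75.5% coding identity, KRT14 for KRT17 at 78.4%, KRT6B for KRT75 at 75.3% and KRT7 for KRT80 at 60.6%.

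The 7 keratins fell by amounts from 1.22-fold to 2.61-fold. All 7 passed edgeR's quasi-likelihood test at an adjusted p of 0.05, where 52.9% of all listed genes were called lower and 81.8% in either direction. All but KRT17 were more than 1.5-fold lower, as were 6.19% of listed genes. The median log2 fold change of the 7 was -0.95, against -0.22 over all listed genes, which went in both directions. Without regard to direction, the median size of the deposited log2 fold changes was 0.29. Normalised counts (estimated counts divided by a size factor per library) did not overlap between the groups in any of the 7, which was also so, in the same direction, for 63.9% of listed genes. In bulk RNA, fewer cells with a transcript and less of it per cell cannot be told apart.

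The 2 type I genes stood at the ends of this range. KRT13 (ENSG00000171401, GRCh38 chromosome 17, 41500981 to 41505705), the keratin of the upper layers of non-cornified epithelia such as the oesophagus, had normalised counts of 435, 482 and 533 in vehicle replicates 1 to 3 and of 192, 194 and 169 with extract. The lowest vehicle library was 2.25 times the highest extract library, the widest gap among the 7. The change on the log2 scale was -1.39 ± 0.10 (SE; edgeR adjusted p = 0.000268), and in the authors' deposited table it ranked 4th by size among genes lower with extract.

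KRT17 (ENSG00000128422, chromosome 17, 41619441 to 41624842), a keratin of basal cells and skin appendages that is induced by injury, had normalised counts of 2758, 2624 and 2493 with vehicle and of 2136, 2299 and 2044 with extract. The groups were separate but close, with the lowest vehicle library 1.08 times the highest extract library. Its change was -0.28 ± 0.06 (log2, SE; edgeR adjusted p = 0.0177), the smallest of the 7 and near the -0.22 of the table as a whole. On the other library scales it moved to between -0.20 and -0.11 and was not called (adjusted p from 0.0924 to 1).

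**Figure D1:**
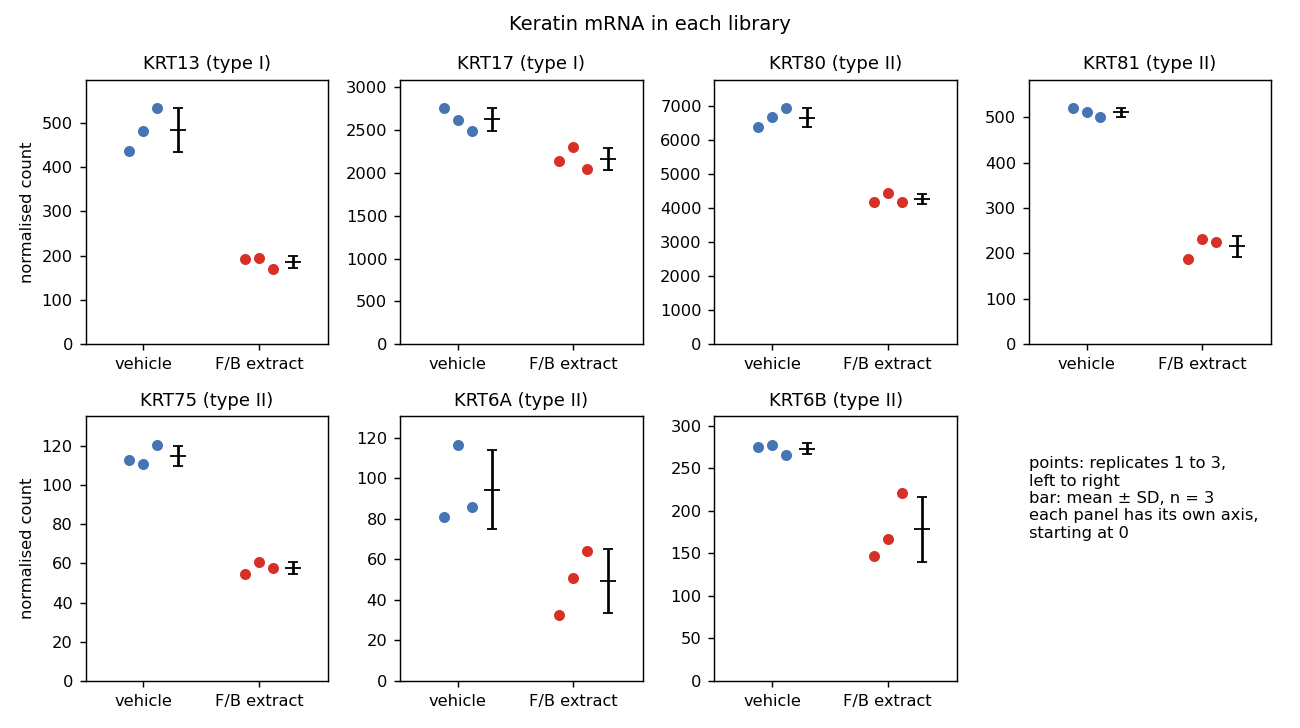
Normalised counts (vertical axes, each starting at 0) of the 7 keratins in vehicle libraries (blue) and F/B extract libraries (red), with points for replicates 1 to 3 and bars for mean ± SD (n = 3). KRT13, KRT81 and KRT75 show wide gaps between groups, whereas KRT17, KRT6A and KRT6B come close, with the lowest vehicle library 1.08, 1.26 and 1.201 times the highest extract library.

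Among type II genes, KRT80 (ENSG00000167767, chromosome 12, 52168996 to 52192000), a filament protein found near desmosomes of differentiating epithelia, was the most highly counted. It had normalised counts of 6370.3, 6658 and 6933 with vehicle and of 4185, 4427 and 4169.9 with extract, and its extract libraries varied by only 3.39% (coefficient of variation). Its log2 change of -0.64 ± 0.05 (SE; edgeR adjusted p = 0.000268) was moderate in size, but its p-value of 3.69e-33 was the smallest of all 1099 genes in the authors' deposited table.

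KRT81 (ENSG00000205426, chromosome 12, 52285913 to 52291534), a keratin of the hair cortex, had normalised counts of 520.5, 512 and 500.4 with vehicle and of 188, 232 and 226 with extract. Every vehicle library was at least 2.15 times every extract library, and the log2 change was -1.24 ± 0.09 (SE; edgeR adjusted p = 0.000268). KRT75 (ENSG00000170454, chromosome 12, 52424070 to 52434525), a keratin of the companion layer of the hair follicle, was far lower in count, at 113, 111 and 121 with vehicle and 54.4, 60.5 and 57.8 with extract. Its libraries were tightly grouped all the same, with a log2 change of -0.99 ± 0.14 (SE; edgeR adjusted p = 0.00428). The authors' deposited table marks KRT13 and KRT81 as significant and the other 5 keratins not. All 11 genes it marks have a deposited fold change of at least 2, and KRT75, at 1.99, fell just short.

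The stress keratins KRT6A and KRT6B were the least certain. KRT6B (ENSG00000185479, chromosome 12, 52446651 to 52452126) had normalised counts of 276, 278 and 266 with vehicle and of 147, 167 and 221 with extract, a log2 change of -0.61 ± 0.14 (SE; edgeR adjusted p = 0.0256). KRT6A (ENSG00000205420, chromosome 12, 52487174 to 52493257) had 80.9, 117 and 86.1 with vehicle and 32.6, 51.1 and 64.2 with extract, or -0.95 ± 0.24 (SE; edgeR adjusted p = 0.0413). In each gene the third extract library was the nearest to the vehicle libraries, and the first was the farthest. The extract libraries of KRT6A varied by 32.2% and those of KRT6B by 21.7%, against 3.39% to 11.1% for the other 5 genes.

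An estimated count that is not whole can arise where a read is divided between transcripts it fits. The counting program is not given in the sources used here, and whether this happened was not tested. KRT6A, KRT6B and KRT81 had counts that were not whole (by more than 0.005) in all 6 libraries, as did 242 of the 1099 listed genes, whereas KRT13 and KRT75 had whole counts throughout, KRT17 was not whole in 2 libraries and KRT80 in 4. The same 3 genes shared the most 100-base windows with other genes. Of 100-base windows of the reference transcript, 24.6% for KRT6B, 18.2% for KRT6A and 30.3% for KRT81 also occurred, on either strand, in transcripts of another gene, mostly KRT6C for the first pair (24.1% and 17.6%) and KRT86 for KRT81 (29.4%). For KRT80, although not whole in 4 libraries, no 100-base window was shared, and for KRT17 0.322% were. The read length is not given in the sources used here, so windows of 50 and 150 bases were also taken: KRT6A, KRT6B and KRT81 shared 39.1%, 47.1% and 44.6% of the shorter and 9.25%, 12.8% and 25.6% of the longer ones.

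**Figure D2:**
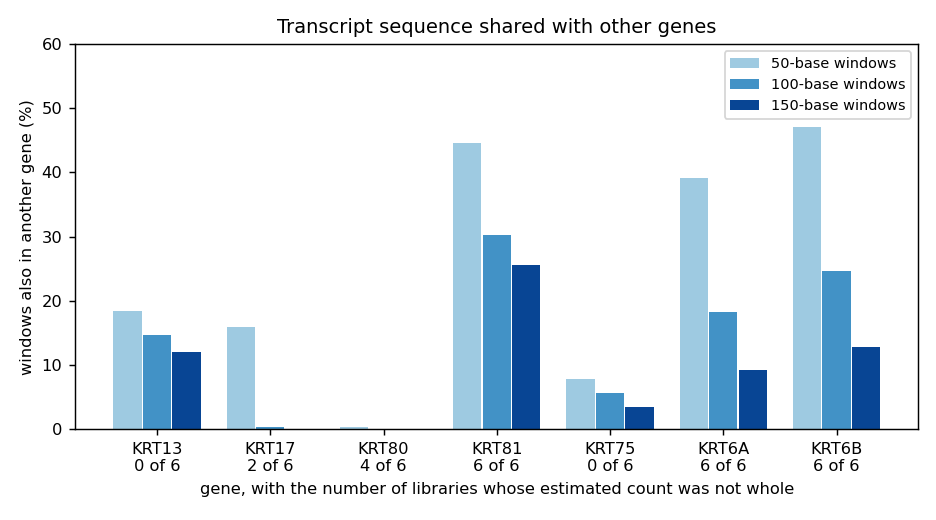
Share of windows of each keratin's reference transcript (vertical axis, percent) that also occur in another gene, for windows of 50, 100 and 150 bases, with the number of libraries whose estimated count was not whole under each name. KRT81, KRT6A and KRT6B, not whole in 6 of 6 libraries, share 30.3%, 18.2% and 24.6% of 100-base windows, and KRT80 shares none.

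Overlapping genes add a second limit, since the labels do not say whether counting used strand. KRT81 lies within the annotated span of KRT86 on the opposite strand. KRT80 overlaps the lincRNA LINC00592, with which its reference transcript shared no 100-base window. KRT13 and KRT75 overlap antisense transcripts with which they share 14.8% and 5.71% of 100-base windows. The counts of these last genes were nevertheless whole in every library. No annotated gene overlaps KRT17, KRT6A or KRT6B.

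Summing KRT6A and KRT6B removes any division of reads between them, though not with KRT6C. The summed normalised counts were 357, 394 and 352 with vehicle and 179, 218 and 286 with extract, with no overlap. The log2 change of the sum was -0.69 ± 0.15 (SE; edgeR adjusted p = 0.0198), an alternative chosen after seeing the data. The share of KRT6A in the summed TPM of the pair was 26.8% to 30.4% with vehicle and 25.4% to 27.1% with extract, so the libraries overlapped. As a log2 ratio within each library, KRT6A over KRT6B changed by -0.13 (exact two-sided permutation p = 0.2), or by -0.33 from counts in place of TPM (exact p = 0.2). A difference in response between the copies was not detectable with these libraries. TPM and counts do not scale alike in the pair: KRT6A had 15.4 to 31.3 estimated counts per TPM and KRT6B up to 32.4, with KRT6A lower in each library, although their deposited lengths of 2308 and 2302 bases are nearly equal.

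Ratios within a library cancel its scale, and 5 were compared, each on log2(TPM + 0.1). With 3 libraries against 3, the exact permutation test cannot go below p = 0.1, and after adjustment over the 5 ratios the smallest value was 0.167, so none could pass. KRT13 over KRT17, the type I genes, was 0.160 with vehicle and 0.0753 with extract. The log2 ratios were -2.87, -2.65 and -2.42 against -3.65, -3.77 and -3.77, without overlap, a difference of -1.08 (exact p = 0.1). KRT81 over KRT80 went from 0.167 to 0.110, a difference of -0.60 with no overlap (exact p = 0.1). KRT75 over KRT6A, genes of the same cluster, overlapped between groups (difference -0.21, exact p = 0.5).

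Over listed genes alone, the summed TPM of type I over type II was 1.02 with vehicle and 1.28 with extract. The log2 difference was 0.33 with no overlap (exact permutation p = 0.1, the smallest possible). The sums hold 2 of 28 type I and 5 of 26 type II genes, so they do not give the balance of all keratins. The type I sum went from 192 ± 5.94 to 155 ± 7.97 TPM (SD, n = 3 each) and the type II sum from 189 ± 5.68 to 121 ± 8.36. This difference does not describe each gene of a type. KRT17 made up most of the type I sum and KRT80 most of the type II sum. KRT13, the other type I gene, had a larger fold change than any type II gene. Its difference from KRT81, the nearest, was not tested.

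**Figure D3:**
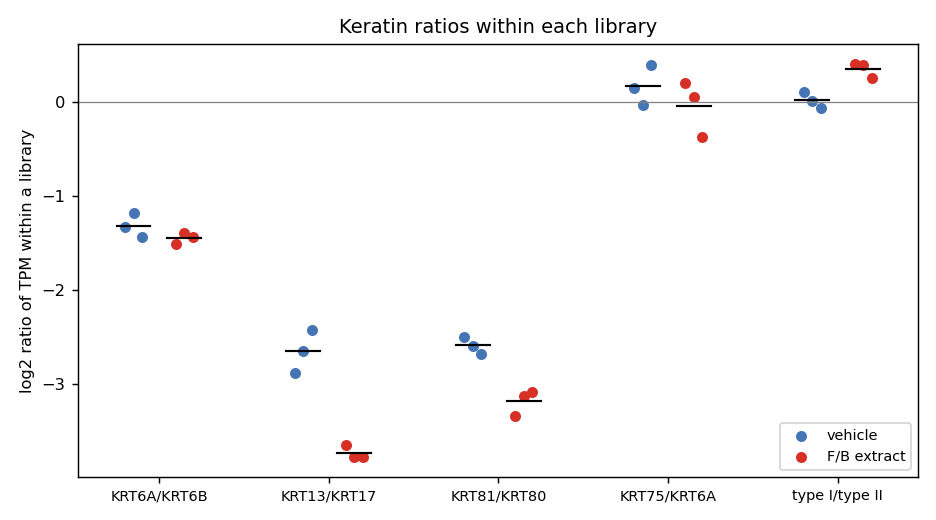
Log2 ratios of TPM within each library (vertical axis) for 4 pairs of keratins and for summed type I over summed type II, in vehicle (blue) and F/B extract (red) libraries, with lines at the means. KRT13/KRT17, KRT81/KRT80 and type I/type II do not overlap between groups (differences of -1.08, -0.60 and 0.33), and the ratios KRT6A/KRT6B and KRT75/KRT6A do.

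Levels per length spanned a wide range. KRT17 was the highest at 158 to 174.5 TPM with vehicle, followed without overlap by KRT80 at 139 to 152. KRT13, at 23.7 to 29.3, and KRT81, at 23.7 to 24.7, overlapped. KRT6B followed at 10.3 to 10.7, and KRT75 (4.52 to 5.00) and KRT6A (3.77 to 4.61) overlapped at the low end. With extract the order was the same except within these overlapping pairs, and the lowest library of KRT81 also came under the highest of KRT6B: KRT17 stood at 137 to 152 TPM, KRT80 at 92.4 to 101, KRT81 at 9.04 to 11.7, KRT13 at 10.3 to 11.1, KRT6B at 5.75 to 9.39, KRT6A at 1.96 to 3.42 and KRT75 at 2.28 to 2.62. On the TPM scale the gap between groups shrank to 1.03 for KRT17 (lowest vehicle over highest extract library), and to 1.10 for KRT6A and KRT6B.

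The summed TPM of the 7 genes was 382, 377 and 382 in vehicle replicates 1 to 3 and 259.7, 288 and 279 with extract, without overlap, so that extract libraries held 72.5% of the vehicle mean (exact permutation p = 0.1). KRT17 and KRT80 made up 81.6% ± 0.545 of the sum with vehicle and 87.7% ± 0.992 with extract (SD, n = 3 each). The other 5 genes together went from 69.9 ± 2.05 to 33.9 ± 3.79 TPM, or 48.5% of the vehicle level.

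**Figure D4:**
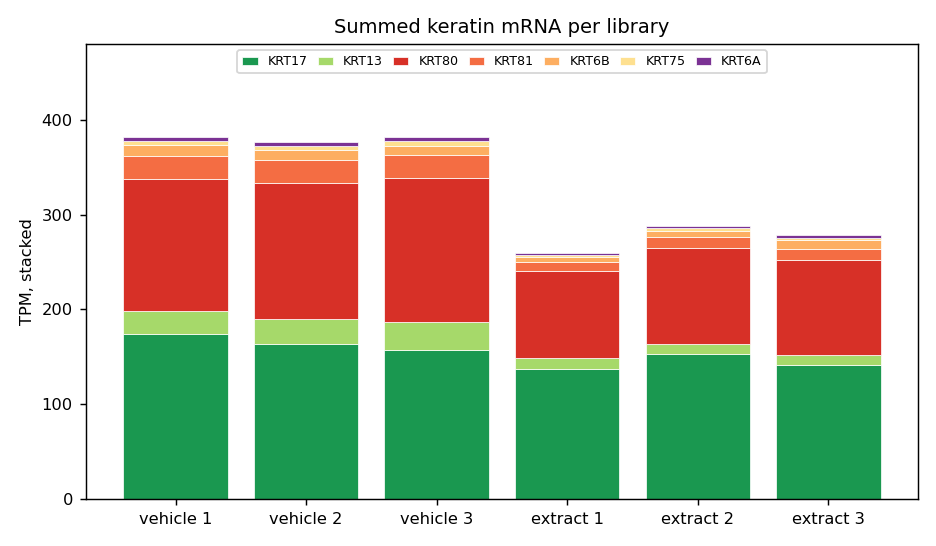
TPM of the 7 keratins stacked per library (vertical axis from 0), with type I genes in green. The sums are 377 to 382 TPM in vehicle libraries and 260 to 288 in extract libraries, and KRT17 and KRT80 make up most of each bar.

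The calls differed in how much they depended on settings. KRT13, KRT81, KRT75 and KRT80 were called lower in each of 15 alternatives (other scales, tests, filter, adjustment, a replicate block, and each library left out), as were 6.01% of the listed genes. KRT6A and KRT6B were called in 6 of the 15, and KRT17 in 10. Of these alternatives, leaving out the filter changed no call. Adjustment over the listed genes alone called all 1099 of them, 712 lower and 387 higher. Neither could therefore lose a call, and both are counted in these numbers. Without vehicle replicate 2, the called keratins numbered 4 in place of 7, and the adjusted edgeR p-values of KRT6A, KRT6B and KRT17 were 0.247, 0.125 and 0.0876. KRT6A also missed the threshold when vehicle library 3, extract library 1 or extract library 2 was left out (adjusted p from 0.0876 to 0.123), and KRT6B when vehicle library 1, vehicle library 3 or extract library 2 was (adjusted p from 0.0577 to 0.112). Neither was called on the other 4 library scales (adjusted p from 0.0868 to 0.196). Without the first extract library the log2 fold change of KRT6A was -0.73 (adjusted p = 0.0903), and without the third it was -1.18 (adjusted p = 0.0320).

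**Figure D5:**
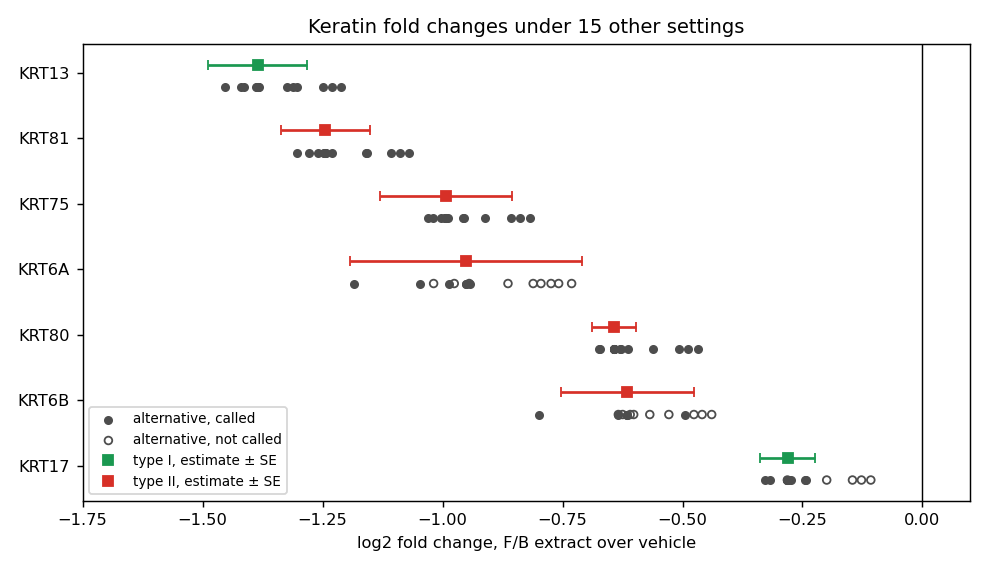
Log2 fold changes of the 7 keratins, F/B extract over vehicle (horizontal axis), as estimates ± SE (squares) and under 15 alternatives (circles, filled where edgeR's or the alternative test's adjusted p was under 0.05). KRT13, KRT81, KRT75 and KRT80 have filled circles only, and KRT17 reaches -0.11.

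Genes that act with keratins were looked up on fixed lists, for which listing again means a small p-value in the same comparison. None of 25 genes for desmosomes, hemidesmosomes and keratin linkers, such as DSP, JUP and PLEC, was in the table. Of 16 other intermediate filament genes, 2 were listed and moved in opposite directions. Vimentin, VIM, the filament protein of mesenchymal cells, had normalised counts of 93.7, 100.4 and 88.0 with vehicle and 154, 151 and 144 with extract. Its level was low, at 4.32 to 12.2 TPM over all libraries. The log2 change of VIM was 0.67 (SE 0.12, edgeR adjusted p = 0.0111). With vehicle library 2, vehicle library 3 or extract library 2 left out it no longer passed (adjusted p from 0.0532 to 0.0574). Nestin, NES, a filament protein of progenitor cells, fell from 2785 ± 90.3 to 2279 ± 76.3 (SD, n = 3 each), or -0.29 (edgeR adjusted p = 0.00701), but was not called on any of the 4 other scales.

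Of 30 genes of squamous differentiation and the cornified envelope, 4 were listed, all lower, and 2 passed, a share no higher than the 52.9% of all listed genes called lower. Their median log2 fold change was -0.76 against -0.22 over all listed genes of both directions, whose median size without regard to direction was 0.29. The galectin LGALS7B was at 95.8, 100.4 and 100.5 normalised counts with vehicle and at 35.9, 36.5 and 56.7 with extract, or -1.20 (SE 0.19, edgeR adjusted p = 0.00705). The call was lost without vehicle replicate 2 (adjusted p = 0.0526), and LGALS7B has a near-identical copy in LGALS7. The calcium-binding protein S100A2 was at 445, 531 and 483 against 261, 201 and 272, or -0.996 (SE 0.119, edgeR adjusted p = 0.00261). FLG, filaggrin, which bundles keratin filaments, was at -0.34 and SPRR2D, a cornified envelope protein, at -0.52. Neither passed (edgeR adjusted p = 0.0886 and 0.0979), although both did by DESeq2's Wald test (adjusted p = 0.0279 and 0.0294), and the highest extract library of each was above its lowest vehicle library.

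Of 36 transcription factors known to act on keratin genes, 10 were listed, all lower, and 9 passed, with a median of -0.32. Of all 1099 listed genes, 712 were lower, 52.9% were called lower and the median was -0.22. That median mixes both directions. Without regard to direction, the median size of the deposited log2 fold changes was 0.29. KLF5 was at -0.36 (SE 0.04, edgeR adjusted p = 0.00141) and KLF4, a factor of epidermal barrier formation, at -0.46 (SE 0.05, edgeR adjusted p = 0.00194). EHF, an epithelial ETS factor, was at -0.44, and POU2F3, a POU factor of suprabasal epidermis, went from 130 ± 11.8 to 67.4 ± 8.90 normalised counts, or -0.94 (SE 0.15, edgeR adjusted p = 0.00705). The calls of KLF5 and KLF4 were kept in all 15 alternatives. EHF was not called when the libraries were scaled by TMM or by DESeq2's factors (adjusted p = 0.0590 and 0.0624), and POU2F3 was not called without vehicle replicate 2 (adjusted p = 0.0574). These factors have many other targets, and their part in the keratin values was not tested. Over all the lists other than keratins, the 12 members called lower became 5 to 7 on the other scales.

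Across the 6 libraries, the listed gene most like each keratin in log2 normalised count was named by Pearson's r, as a description only, since the libraries fall into the 2 groups and any gene that differs between them scores high. For KRT80 it was VIL1, the brush border protein villin (r = 0.999), with 205 of 1037 genes above 0.95. For KRT13 it was CNBP (r = 0.998), for KRT81 EIF2S1 (r = 0.999), for KRT75 PNN (r = 0.9965) and for KRT17 TARDBP (r = 0.9945). KRT6B was most like SSR3 (r = 0.9905) and KRT6A most like SLC20A2 (r = 0.985), with 5 of 1038 genes above 0.95 for KRT6A. No keratin was the closest to another keratin. KRT6A and KRT75, with means under 5 TPM in both groups, were not among the genes that could be named.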

How the data were processed

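The authors deposited 1 table of estimated counts, TPM values, gene lengths and their own comparison. Its fold change is a ratio of vehicle over extract, with log2 fold change, p-value and adjusted p-value, per the file headers, and the direction was read from the deposited TPM values. Per the submitters' processing notes, reads were placed on GRCh38.p13. Not given in the sources used here are the aligner, the annotation and the program that counted. Estimated counts were rounded to whole numbers. Sums over listed genes are not depth, so libraries were scaled by the size factors that the deposited fold changes imply (median absolute log2 difference 6.48e-05). All listed genes were tested with edgeR 4.0.16 (R 4.3.3), with Benjamini-Hochberg adjustment over 11289 genes and a threshold of 0.05. The script was tested on simulated data. Alternatives used 4 other scales, DESeq2 1.42.0, limma-voom (limma 3.58.1), no filter, adjustment over listed genes alone, a replicate block and each library left out. The text names all keratins, up to 4 listed genes per list by p-value, and the listed gene most like each keratin (among genes with a group mean of 5 TPM or more). Members and lists were chosen with earlier results of these data known. Coding sequences were aligned with Biopython 1.88. A promoter sequence was found for 1 of the 7 keratins and none was used.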

Additional observations from a re-analysis of the deposited data

How the results depend on the processing

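The number of keratins called lower, 7, was 4 with TMM, with DESeq2 size factors, with library sums of listed genes and with a scale taken from TPM, and 4 to 7 with a library left out. In the same order of scales, members of the other lists called lower, 12, numbered 5, 5, 6 and 7, and calls lower over the whole table, 581, numbered 87, 86, 126 and 214, while 385, 387, 386 and 371 were called higher in place of 318. Of all calls, 64.6% were thus lower, against 18.4%, 18.2%, 24.6% and 36.6% on these scales, which shift the median log2 change upward by 0.15, 0.17, 0.14 and 0.08. With a library left out, list members numbered 5 to 13 lower and 0 to 1 higher, and over all listed genes there were 128 to 570 calls lower and 50 to 287 higher. With the replicate block, 5 keratins (without KRT6A and KRT6B, adjusted p = 0.0607 and 0.0640), 232 genes lower and 90 higher were called. The labels do not say whether same-numbered libraries were paired. No pairing was detected in the values: same-numbered libraries had correlations of -0.23, -0.01 and -0.03, and no library correlated best with its own number. No keratin changed sign under any of these alternatives. The cause of these shifts was not tested. The 5 within-library ratios, the summed TPM and the vehicle order of levels kept their direction. With 3 libraries a group, the permutation tests could not pass the threshold. Estimated counts were low for KRT6A (30.2 to 144) and KRT75 (50 to 137), with SEs of 0.24 and 0.14, and the part of depth in these errors was not tested.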
